A study of Mus musculus with 6 samples.

Results

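The nuclear-encoded genes of oxidative phosphorylation were examined in the small intestinal mucosa of alkaline sphingomyelinase (alk-SMase) knockout (KO) and wild-type (WT) mice. The genes were chosen by symbol and by the ranks of 2 libraries that place their names in the table, and were known to be lower in KO mice when they were chosen. The rule took protein-coding genes of GENCODE M21 whose symbols begin with Ndufa, Ndufb, Ndufc, Ndufs, Ndufv, Uqcr, Cox4 to Cox8 or Atp5, together with Sdha to Sdhd and Cyc1. Of 95 such symbols, 90 were listed in the deposited expression table, which lists 22700 genes, and 88 could be tied to their values. The libraries came from 3 KO mice (K79S, K82S and K86S) and 3 WT mice (W83S, W89S and W90S). Each mouse gave 1 RNA-seq library from the middle part of the small intestine. The study names C57BL/6 mice where it locates the targeted gene, and does not give the strain separately for each group. In KO mice exon 2 of Enpp7, the gene of alk-SMase, had been deleted by the Cre-loxP system, which shifts the reading frame and stops the protein. The WT mice served as controls, no treatment is named for either group, and the age and sex of the mice and the driver of Cre are not given in the sources used here.

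Oxidative phosphorylation takes place in the inner mitochondrial membrane. Complexes I and II pass electrons from NADH and succinate to coenzyme Q, complex III passes them on to cytochrome c, complex IV hands them to oxygen, and ATP synthase (complex V) uses the proton gradient to make ATP. Most subunits are encoded in the nucleus and imported into mitochondria, while a small set is encoded in mitochondrial DNA, so that complexes I, III, IV and V are built from the products of both genomes. In the small intestine, absorptive enterocytes use ATP for nutrient transport and for packaging dietary fat.

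In the deposited table the gene identifiers stand beside the values of other genes. Identifiers were ranked by the K79S value printed beside them and rows by W83S, and matching ranks, with small offsets, tied 11056 identifiers to their rows. All 11056 had at least 1.47 FPKM in W83S (FPKM counts the fragments of a gene relative to its transcript length and to the mapped reads of the library), and the lowest of the 88 genes had 1.83 FPKM there, so a gene had to be expressed in this WT library to be placed. The placement was checked on the number of decimals printed, which is at most 6 for 99.8% of the 3178 placed genes with 1 annotated transcript and for 5.79% of the 7874 with several. Among the oxidative phosphorylation genes these shares were 8 of 8 and 6 of 80. Cox6a2 and Ndufa4l2, muscle and hypoxia-linked isoforms, were listed but could not be placed, and Cox4i2, Cox7b2, Cox8b, Cox8c and a second gene with the symbol Atp5o are not analysed here. The symbols also took in 8 assembly factors of complex I (Ndufaf1 to Ndufaf8), which are not subunits of the finished complex, and Atp5s, which is not a subunit of ATP synthase. The remaining 79 encode subunits or tissue isoforms, apart from Cox7a2l, a factor that joins complexes into supercomplexes.

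Markers of enterocytes were abundant in every library, with a summed level over 9 genes of 24494 to 40218 FPKM in KO mice and 33409 to 37291 FPKM in WT mice, with 4 of the 9 genes lower and 5 higher in the mean of KO mice. Among the 9, 0 lay below in all KO libraries and 1 above, the aminopeptidase gene Anpep with a difference of 0.70. Over all rows tested, 11.3% lay below and 5.9% above. W83S stood apart through genes of the stomach. The parietal cell genes Atp4a and Atp4b, subunits of the gastric proton pump, summed to 1313 FPKM in W83S and to at most 0.219 FPKM elsewhere, where 4 libraries listed both at 0. Gastric surface and chief cell genes (4 placed of 6) summed to 37212 FPKM in W83S and to at most 5.24 FPKM in the other libraries. The counts over the 88 genes, the complexes, the length classes up to 750 and 1500 bases and several of the lists are therefore also given without W83S. Enpp7 measured 605, 129 and 669.7 FPKM in KO mice and 406, 667 and 495 FPKM in WT mice, but a value over the whole gene does not test the deletion of 1 exon.

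All 88 genes had a lower mean level in KO than in WT mice, where 57.7% of the 13089 rows tested did. For 66 of the 88 (75%), every KO library lay below every WT library, against 11.3% of all rows tested and 12.3% of the 10923 placed rows tested. None of the 88 had every KO library above every WT library, against 5.9% of all rows. The median difference was -0.52 on the log2(FPKM + 1) scale (quartiles -0.63 and -0.40), compared with -0.06 over all rows tested. Mean FPKM in KO mice was 69.8% of that in WT mice in the median gene, and ranged from 42.6% to 93.8%. With W83S left out, 88 of 88 genes were again lower in KO mice, against 60% of all rows, and 70 lay below in all KO libraries, where 20.7% of all rows did.

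**Figure D1:**
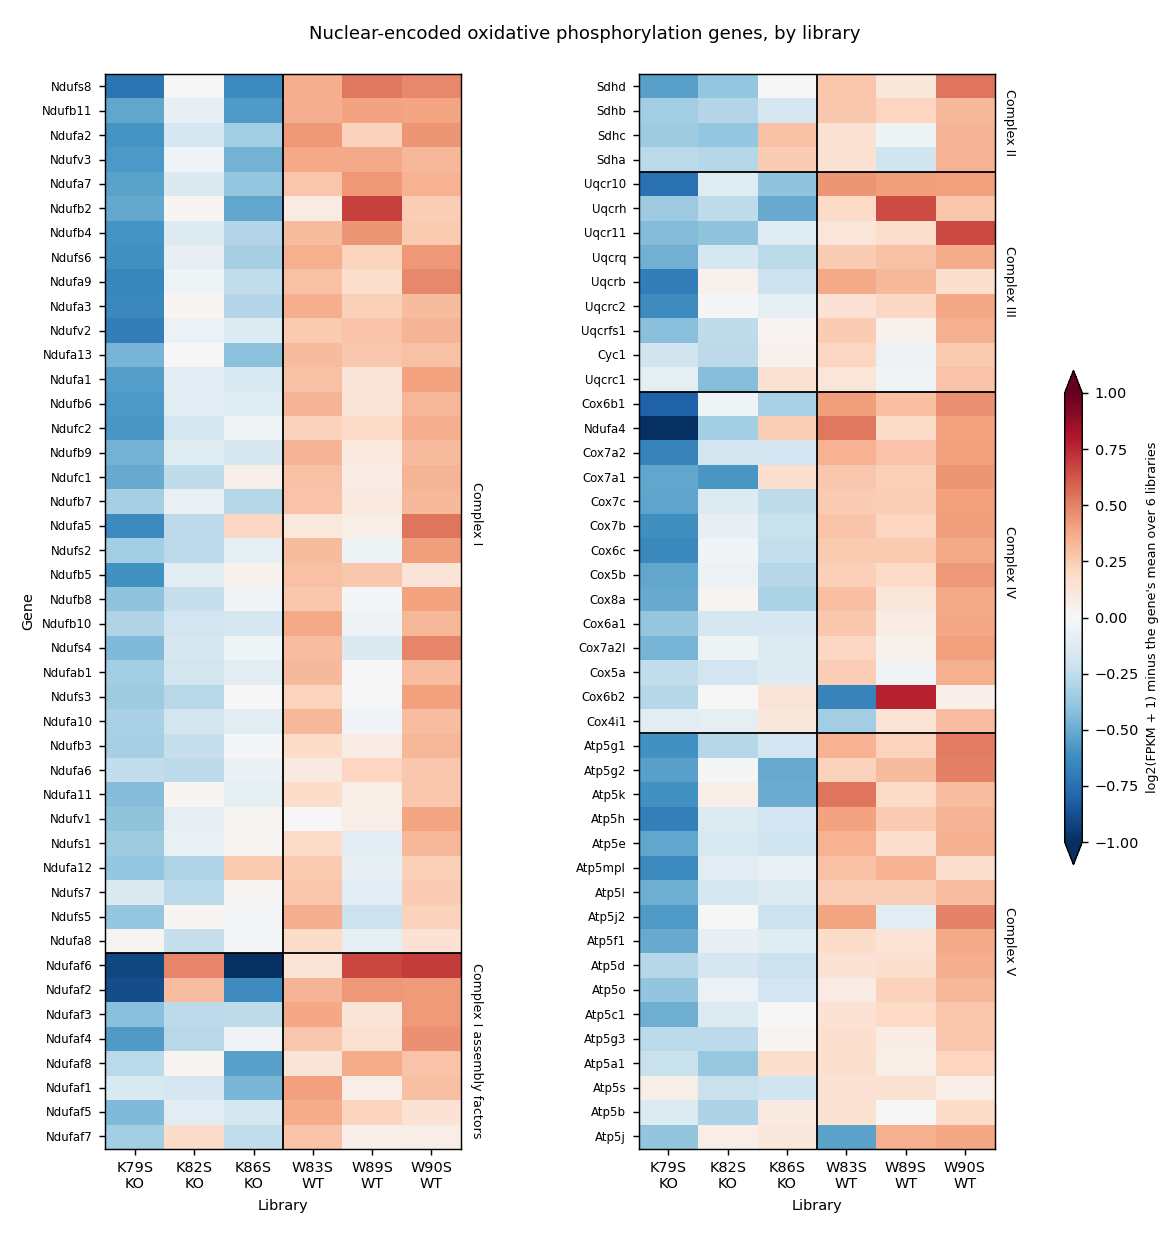
Level of each of the 88 genes in each library as log2(FPKM + 1) minus the gene's mean over the 6 libraries (colour), by complex and in order of the difference between genotypes. The 3 KO columns are mostly blue (below the mean) and the 3 WT columns mostly red (above it), with K79S darkest and with W83S blue for Cox4i1, Cox6b2 and Atp5j.

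None of the 88 differences passed the threshold used for single genes, an adjusted p under 0.05 in limma with a fold change above 1.5 or below 2/3. The same threshold was passed by 1 of the 13089 rows (0.00764%). The adjusted p over all rows (limma, Benjamini-Hochberg) was between 0.393 and 0.917 for the 88 genes. Without adjustment, 57 of the 88 (64.8%) had p under 0.05 in limma, all with lower levels in KO mice, compared with 9.64% of all rows in that direction. In 30 of the 88 genes (34.1%) the fold change was below 2/3, compared with 10.4% of all rows. The exact two-sided permutation test of 3 against 3 mice cannot go below 0.1, which the 66 genes without overlap reached. The 88 genes lie on 19 chromosomes of GRCm38, as annotated in GENCODE M21, for example Ndufs8 at chr19:3908863-3912774, Uqcr10 at chr11:4701973-4704342, Cox6b1 at chr7:30616861-30626151 and Sdhb at chr4:140961203-140979193. The genes and their direction were known from earlier results of these data, so that these counts describe the genes and are not a test of the group.

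The KO libraries were not equally low. The 88 genes summed to 7631 FPKM in K79S, 9366 FPKM in K82S and 9447 FPKM in K86S. Among WT mice W83S had 12436 FPKM, W89S 11648 FPKM and W90S 13404 FPKM. The mean of 8815 ± 1026 FPKM in KO mice (SD, n = 3) was 70.5% of the mean of 12496 ± 880 FPKM in WT mice (SD, n = 3), and the genotypes did not overlap. K79S had the lowest value of all 6 libraries for 68 of the 88 genes, K82S for 11, K86S for 6 and W83S for 3. The highest value was in a WT library for 87 genes, 56 of them in W90S, and in K86S for Ndufa12. The SD of log2 levels was larger among KO than among WT mice for 64 of the 88 genes, with medians of 0.236 and 0.131. Without K79S, the median difference was -0.40, 86 of the genes were lower in KO mice and 66 did not overlap, where 13.7% of all rows lay below in that comparison.

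**Figure D2:**
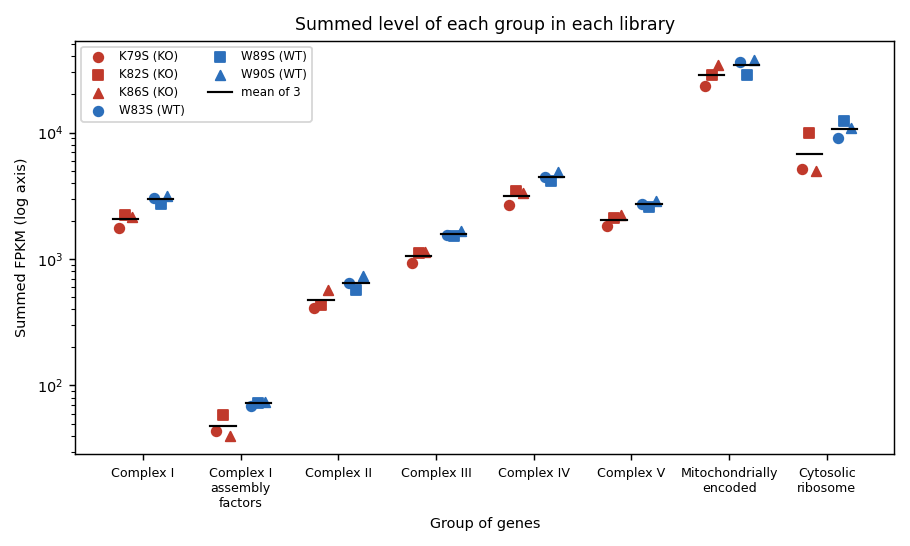
Summed FPKM (log axis) of the genes of each complex and of 2 further groups in each of the 6 libraries, with 1 symbol per library and a bar at the mean of 3. The genotypes are separate for complexes I, III, IV and V and for the assembly factors, and overlap for complex II, for the mitochondrially encoded subunits and for the cytosolic ribosome.

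Complex I, the NADH dehydrogenase, had 36 subunits among the genes, and its summed level in KO mice was 69.3% of that in WT mice. In 27 of the 36 every KO library lay below every WT library, against 11.3% of all rows tested, and the median difference was -0.47. The counts without overlap given below for the complexes and the catalytic subunits are read beside the same share. In the following, the levels of a gene are given in the order K79S, K82S, K86S for KO mice and W83S, W89S, W90S for WT mice. Ndufs8, which encodes a core subunit that holds iron-sulfur clusters, measured 56.3, 94.2 and 60.4 FPKM in KO mice and 121, 136 and 132 FPKM in WT mice. K79S and K86S lay furthest below the WT libraries, K82S lay in between, and the difference was -0.91 (SE 0.230). It was the largest difference in the complex. The 7 core subunits had a median of -0.42, and 3 of them did not overlap.

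The accessory subunits, which surround the catalytic core, numbered 29, of which 24 did not overlap between genotypes. Ndufb11, a single-pass membrane subunit, measured 95.9, 130.2 and 92.8 FPKM in KO mice and 177, 182 and 181 FPKM in WT mice, a difference of -0.77 (SE 0.188). The 3 WT libraries lay close together and K82S was the nearest of the KO libraries to them. Ndufa2, a small subunit of the peripheral arm, measured 110.1, 148 and 132 FPKM in KO mice and 226, 197 and 226 FPKM in WT mice, and Ndufv3, a subunit next to the NADH-binding module, measured 23.8, 34.7 and 25.6 FPKM in KO mice and 47.0, 47.1 and 45.6 FPKM in WT mice. Their differences were -0.74 (SE 0.183) and -0.73 (SE 0.180), with no overlap in either. The most abundant subunit transcript per length was Ndufa1 with 126, 172 and 167 FPKM in KO mice and 228, 203 and 246 FPKM in WT mice, followed by Ndufb9 with 127, 162 and 157 FPKM in KO mice and 224, 189 and 220.0 FPKM in WT mice. Both were lower in every KO library, by differences of -0.55 (SE 0.194) and -0.51 (SE 0.180).

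At the catalytic entry of complex I, Ndufv1 and Ndufs1 overlapped between genotypes, while Ndufv2 did not. Ndufv1, which binds the flavin that accepts electrons from NADH, measured 45.0, 56.1 and 60.8 FPKM in KO mice and 59.6, 62.6 and 78.9 FPKM in WT mice. K86S lay above W83S, and the difference was -0.31 (SE 0.193). Ndufs1, the largest iron-sulfur subunit, measured 9.54, 11.8 and 12.6 FPKM in KO mice and 14.4, 11.6 and 16.02 FPKM in WT mice, a difference of -0.28 (SE 0.175), with K82S and K86S above W89S. The smallest difference in the complex was that of Ndufa8 at -0.16 (SE 0.168), where K79S and K86S exceeded W89S.

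The 8 assembly factors of complex I were expressed at a low level, with a sum of 47.4 ± 9.77 FPKM in KO and 72.1 ± 2.89 FPKM in WT mice (SD, n = 3 each). Their median difference was -0.55, and 6 of the 8 did not overlap. Ndufaf6 had the largest difference of all 88 genes at -1.0 (SE 0.427), with 0.604, 3.22 and 0.427 FPKM in KO mice and 2.30, 3.79 and 3.89 FPKM in WT mice. K79S and K86S were under 1 FPKM while K82S exceeded W83S, so the genotypes overlapped. Ndufaf2, which joins the complex late in its assembly, was likewise lowest in K79S and K86S, with 0.614, 2.69 and 0.942 FPKM in KO mice and 2.77, 3.03 and 3.01 FPKM in WT mice, and here K82S stayed just below W83S with a difference of -0.80 (SE 0.304). Ndufaf3, which acts early in assembly, had the smallest unadjusted p of the 88 genes in limma (0.0028, adjusted p = 0.393), with 4.14, 4.72 and 4.76 FPKM in KO mice and 7.99, 6.52 and 8.25 FPKM in WT mice and a difference of -0.63 (SE 0.136). The most abundant of them, Ndufaf8, measured 29.5, 36.5 and 24.2 FPKM in KO mice and 39.2, 46.4 and 43.7 FPKM in WT mice. Ndufaf1, Ndufaf4 and Ndufaf5 lay lower in every KO library, with differences of -0.52, -0.58 and -0.49, and Ndufaf7 overlapped with a difference of -0.27.

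Complex II, the succinate dehydrogenase of the citric acid cycle, is the only complex of the chain without a mitochondrially encoded subunit. Its summed level was 472 ± 87.8 FPKM in KO and 652 ± 83.2 FPKM in WT mice (SD, n = 3 each), and K86S with 573 FPKM slightly exceeded W89S with 571 FPKM. Sdhd, a membrane anchor, measured 160.1, 179 and 235 FPKM in KO mice and 284, 254 and 339.7 FPKM in WT mice, and Sdhb, the iron-sulfur subunit, measured 103, 107 and 116 FPKM in KO mice and 159, 152 and 164 FPKM in WT mice. Neither overlapped, and the differences were -0.62 (SE 0.218) and -0.54 (SE 0.151). Sdha, the flavoprotein that oxidises succinate, measured 102, 100.5 and 147 FPKM in KO mice and 137, 107 and 157 FPKM in WT mice, a difference of -0.20 (SE 0.235), smaller than its standard error. K86S lay above W83S and W89S for Sdha and also for Sdhc, the other membrane anchor, whose difference was -0.30.

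Complex III, the cytochrome bc1 complex, had the lowest summed level relative to WT mice among the 5 complexes, at 67.0%, and 7 of its 9 genes did not overlap. Uqcr10, a small subunit beside the catalytic core, measured 157, 242 and 198 FPKM in KO mice and 356, 351 and 351 FPKM in WT mice. The 3 WT libraries differed little from each other, all KO libraries were lower, and the difference of -0.84 (SE 0.206) was the second largest among the genes without overlap. Uqcrh, the hinge protein that contacts cytochrome c1, measured 99.96, 108 and 90.9 FPKM in KO mice and 147, 204 and 157 FPKM in WT mice, a difference of -0.75 (SE 0.189), with W89S highest. Uqcr11 measured 130.1, 133 and 162 FPKM in KO mice and 192, 199 and 278 FPKM in WT mice, with W90S highest and no overlap. The subunits that carry electrons differed less. Uqcrfs1, the Rieske iron-sulfur protein, measured 137, 153 and 186 FPKM in KO mice and 219.5, 189 and 235 FPKM in WT mice, where K86S came within a few FPKM of W89S, and the difference was -0.44 (SE 0.191). Cyc1, which is cytochrome c1 itself, measured 147, 140.4 and 173 FPKM in KO mice and 195, 161 and 202 FPKM in WT mice, with K86S above W89S and a difference of -0.28 (SE 0.181).

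Complex IV, cytochrome c oxidase, held the most abundant transcripts of the 88 genes. Cox6a1 measured 769.8, 889 and 896 FPKM in KO mice and 1215, 1057 and 1319 FPKM in WT mice, and Cox8a measured 484, 699.8 and 553 FPKM in KO mice and 849, 744 and 894 FPKM in WT mice. Both encode small subunits in their ubiquitous form, and neither overlapped between genotypes, with differences of -0.49 (SE 0.188) and -0.53 (SE 0.210). Cox6b1, which faces the intermembrane space and contributes to the dimer contact, measured 322, 548 and 450.4 FPKM in KO mice and 758, 698 and 777 FPKM in WT mice, with K79S at less than the other KO libraries and a difference of -0.79 (SE 0.238). Over its 14 genes, 11 did not overlap and the median difference was -0.59, the furthest from 0 of the 5 complexes.

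The isoform groups of complex IV held 2 of the 3 smallest differences. Cox4i1, the ubiquitous isoform of the largest nuclear-encoded subunit, measured 397, 402 and 464 FPKM in KO mice and 338, 473 and 534 FPKM in WT mice. W83S was the lowest of all 6 libraries, so the genotypes overlapped, and the difference of -0.07 (SE 0.225) was the smallest of the 88. It turned to 0.12, 0.02 and 0.04 when libraries were scaled to the same sum, by median of ratios or by quantiles, and to 0.07 without W90S. Cox6b2, known as the testis form of Cox6b1, measured 4.35, 5.52 and 6.13 FPKM in KO mice and 3.12, 10.1 and 5.74 FPKM in WT mice, a difference of -0.10 (SE 0.353), again with W83S lowest. Cox7a2 measured 110.2, 155 and 154 FPKM in KO mice and 224, 214 and 233 FPKM in WT mice and Cox7a1, described as the heart and muscle form of the same subunit, measured 128, 123 and 206 FPKM in KO mice and 222, 217 and 250.2 FPKM in WT mice. Neither overlapped, with differences of -0.69 (SE 0.195) and -0.63 (SE 0.241). Cox7a2l measured 41.9, 56.2 and 52.7 FPKM in KO mice and 67.2, 59.6 and 77.3 FPKM in WT mice, a difference of -0.43 (SE 0.186). Ndufa4, a complex IV subunit in spite of its symbol, had the widest relative range among KO mice in this complex, with 42.5, 68.1 and 103 FPKM in KO mice and 125, 98.2 and 115 FPKM in WT mice, and K86S lay above W89S.

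ATP synthase had 17 genes with an Atp5 symbol, of which 13 did not overlap, and its summed level in KO mice was 74.6% of that in WT mice. The catalytic subunits overlapped. Atp5b, the beta subunit that makes ATP, measured 376, 334 and 440.2 FPKM in KO mice and 459.5, 415 and 469.9 FPKM in WT mice, and Atp5a1, the alpha subunit, measured 197, 176 and 259 FPKM in KO mice and 256, 239 and 266 FPKM in WT mice. In Atp5b K86S lay above W89S, in Atp5a1 it lay above W83S and W89S, and the differences were -0.23 (SE 0.185) and -0.28 (SE 0.20). Among the 11 genes of the stalk and of the membrane part Fo, 9 did not overlap and the median difference was -0.53. Atp5k, which encodes subunit e of the membrane part, measured 185, 292 and 199 FPKM in KO mice and 408, 320.4 and 349 FPKM in WT mice, a difference of -0.69 (SE 0.234). Atp5j, the coupling factor of the stalk, overlapped, with W83S the lowest library, at 36.0, 49.7 and 51.4 FPKM in KO mice and 32.5, 61.1 and 62.4 FPKM in WT mice.

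The c subunit, whose ring turns in the membrane, is encoded by 3 genes with the same mature protein and different import peptides. Atp5g3 was the most abundant with 227, 229 and 279 FPKM in KO mice and 308, 289 and 332 FPKM in WT mice, Atp5g2 followed with 26.2, 38.2 and 26.9 FPKM in KO mice and 45.5, 48.3 and 55.0 FPKM in WT mice, and Atp5g1 measured 16.9, 21.2 and 22.8 FPKM in KO mice and 33.6, 30.7 and 37.7 FPKM in WT mice. None of the 3 overlapped. Their differences were -0.34 (SE 0.175), -0.70 (SE 0.195) and -0.72 (SE 0.170), so that the most abundant gene had the smallest difference, but the difference between the genes was not tested.

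Across the chain, 6 of the 8 named catalytic subunits (Ndufs1, Ndufv1, Sdha, Cyc1, Atp5a1 and Atp5b) overlapped between genotypes, while Sdhb and Uqcrfs1 did not. The median difference of these 8 was -0.28, and that of the other 80 genes was -0.53, of which 64 did not overlap. The 8 also had longer transcripts, with a median length of 1400 bases against 652 bases. The contrast between these groups of genes was seen in the same libraries and was not tested.

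Without W83S, the summed level in KO mice relative to WT mice was 69.9% for complex I, 64.3% for its assembly factors, 72.2% for complex II, 66.1% for complex III, 69.4% for complex IV and 74.7% for complex V. The medians were -0.44, -0.59, -0.42, -0.54, -0.61 and -0.50 in the same order. The genes below in all KO libraries numbered 28 of 36, 7 of 8, 2 of 4, 7 of 9, 12 of 14 and 14 of 17, beside 20.7% of all rows. In this comparison 3 of the 8 catalytic subunits and 67 of the other 80 genes lay below, with medians of -0.27 and -0.53.

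**Figure D3:**
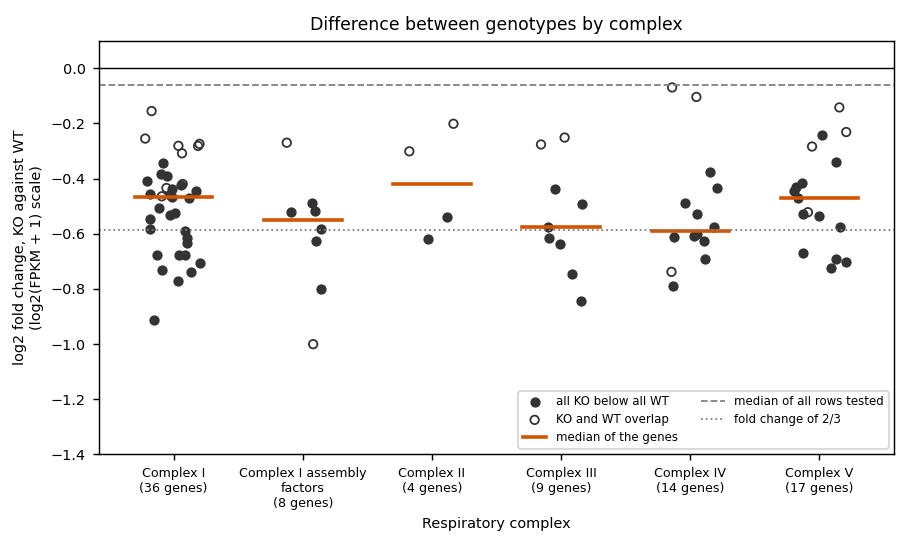
Difference of each of the 88 genes between KO and WT mice (log2 scale of FPKM + 1) by complex, with filled points for genes whose KO libraries all lay below the WT libraries and open points for genes with overlap, a bar at each median and a dashed line at the median of all rows tested (-0.06). All points lie under 0, and the medians lie between -0.42 and -0.59.

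Of the 22 genes with overlap, 13 no longer overlapped without K86S and 10 without W89S. The share of all rows below in all KO libraries also rose in these comparisons, from 11.3% to 15.5% and 17.4%. Leaving out K82S gave a different picture in the test. In that comparison 16 of the 88 genes passed the threshold in limma (Benjamini-Hochberg adjusted p 0.0319 to 0.0494), all lower in KO mice, while 9.28% of all rows passed it and 8.88% did so with lower levels. The 16 were Ndufaf6, Ndufaf2, Ndufs8, Ndufb11, Ndufv3, Ndufa2, Ndufa7, Ndufs6, Ndufb4, Ndufa3 and Ndufa13 of complex I and its assembly, Uqcr10 and Uqcrq of complex III, Cox6b1 of complex IV, and Atp5k and Atp5g2 of ATP synthase. They made up 18.2% of the 88 genes. Leaving out any other single library left 0 of the 88 past the threshold in limma, with 22 to 49 of them at an unadjusted p under 0.05, against 5.22% to 9.03% of all rows.

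The libraries differed in the total of their values, which bears on how much lower the genes appear. All FPKM values summed to 426729 ± 36696 in KO mice and 484073 ± 11002 in WT mice (SD, n = 3 each), so that KO libraries held 88.2% of the WT total. The 88 genes made up 2.06 ± 0.158% of the total in KO mice and 2.59 ± 0.240% in WT mice. The shares were 1.94%, 2.01% and 2.24% in K79S, K82S and K86S and 2.57%, 2.35% and 2.83% in W83S, W89S and W90S, with no overlap. When libraries were scaled to the same sum, the median of all rows moved by 0.14 to 0.08, and the median of the 88 genes became -0.34, which is 0.42 below that of all rows. Under this scaling 84 of the 88 were lower in KO mice, against 40.4% of all rows, and 45 (51.1%) did not overlap, against 5.84% of all rows below and 14.3% above. The 45 were all lower in KO mice. Scaling by median of ratios gave 87 lower and 50 below without overlap, against 10.3% of all rows, with a median of -0.43. Quantile normalization gave 85 lower and 42 below without overlap, against 9.5% of all rows, with a median of -0.37.

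The subunits of the same complexes that are encoded in mitochondrial DNA were compared with the nuclear-encoded genes. Of the 13, 12 had a lower mean in KO mice, against 57.7% of all rows tested, and their median difference was -0.29. None lay below in all KO libraries, against 11.3% of all rows. In limma 0 passed the threshold or an unadjusted p under 0.05, where 12.5% of all rows had such a p. With 13 genes, counts of 0 are near these shares, and the contrast with the nuclear-encoded genes was not tested. The most abundant, mt-Co1, a catalytic subunit of complex IV, measured 5776, 7189.6 and 8556 FPKM in KO mice and 7436, 6589.9 and 7229.8 FPKM in WT mice, a difference of 0.00 (SE 0.226), and mt-Cytb, the cytochrome b of complex III, measured 3387, 4083 and 4627 FPKM in KO mice and 5677, 4142 and 6388 FPKM in WT mice, a difference of -0.41 (SE 0.251). The ratio of the summed nuclear-encoded to the summed mitochondrially encoded levels was 0.327, 0.330 and 0.274 in K79S, K82S and K86S. It was 0.346, 0.410 and 0.355 in W83S, W89S and W90S, and the genotypes did not overlap, also without W83S, which was the lowest of the WT libraries in this ratio.

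Other genes of mitochondria were examined by lists. Of 77 genes of the mitochondrial ribosome, which translates the mitochondrial transcripts, 44 lay below in all KO libraries, with a median of -0.40. Its most abundant genes were Mrps21 with 56.1, 75.2 and 63.3 FPKM in KO mice and 49.8, 87.9 and 88.2 FPKM in WT mice and Mrpl12 with 39.2, 47.4 and 49.8 FPKM in KO mice and 80.5, 68.1 and 89.02 FPKM in WT mice, and of these Mrpl12 did not overlap. Of 23 genes of the import machinery 13 lay below with a median of -0.35, among them Timm8b with 48.0, 72.4 and 60.9 FPKM in KO mice and 99.2, 103 and 101 FPKM in WT mice, while Timm13 overlapped with a difference of -0.33. The other assembly factors were lower in KO mice in 36 of 36 cases with a median of -0.26, and 10 lay below, with Cox14 at -0.33 and Coa3 at -0.21. Without W83S, 55 genes of the mitochondrial ribosome, 13 of import and 14 of the other assembly factors lay below in all KO libraries. The share of all rows below was 11.3% with all libraries and 20.7% without W83S.

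The lists of substrate supply and of regulators are read beside the 11.3% of all rows that lay below. Of 14 genes of the TCA cycle, 5 (35.7%) lay below in all KO libraries, and the most abundant were Mdh2, malate dehydrogenase, with 339, 188 and 413 FPKM in KO mice and 401, 342 and 443 FPKM in WT mice, and Ogdh with 232, 131 and 218 FPKM in KO mice and 164, 185 and 174 FPKM in WT mice, both with overlap. Among electron carriers and coenzyme Q synthesis 5 of 13 (38.5%) lay below, including its most abundant genes Cycs, cytochrome c, with a difference of -0.25, and Coq9 with -0.52. Of 15 genes of glycolysis 2 (13.3%) lay below with a median of -0.39, and Ldha, lactate dehydrogenase, had a difference of -0.41. Of 9 regulators of mitochondrial genes 1 (11.1%) lay below, Tfam, the packaging and transcription factor of mitochondrial DNA, with 3.18, 4.56 and 3.80 FPKM in KO mice and 4.65, 5.03 and 5.40 FPKM in WT mice. Esrra and Yy1, the most abundant of them, had differences of 0.04 and 0.04. Without W83S the counts below were 5 for the TCA cycle, 6 for electron carriers and coenzyme Q synthesis, 2 for glycolysis and 1 for the regulators. In that comparison 20.7% of all rows lay below. The shares of glycolysis and of the regulators were near that of all rows with all libraries, and under it without W83S. None of the genes of these lists passed the threshold in limma.

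The cytosolic ribosome, a set of short and abundant transcripts, had a median difference of -0.72. Of its 89 genes, 10 (11.2%) lay below in all KO libraries, near the 11.3% of all rows. Its summed level was 5137 FPKM in K79S, 9979 FPKM in K82S and 5006 FPKM in K86S, while the WT libraries held 9052 FPKM (W83S), 12280 FPKM (W89S) and 10848 FPKM (W90S), so that K82S lay within the WT range. Without W83S, 64 of the 89 lay below in all KO libraries, where 20.7% of all rows did. The median was then -0.84 and K82S was below the lowest WT sum. Without K82S, 71 of the 89 passed the threshold in limma, against 9.28% of all rows. Rplp1 and Rps15, its most abundant genes, had differences of -0.92 and -0.71. The proteasome, another multi-subunit machine, had 4 of 37 genes below (10.8%), also near the share of all rows. Its median was -0.18, with differences of 0.04 in Psmb10 and -0.41 in Psmb1.

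**Figure D4:**
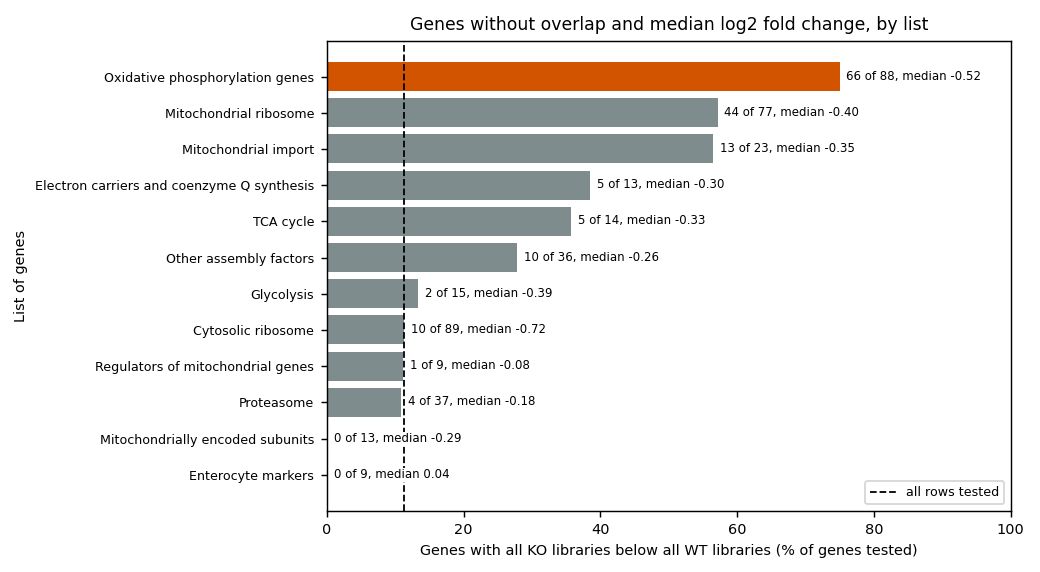
Share of the genes of each list shown whose KO libraries all lay below the WT libraries (bars, % of genes tested). The counts and the median difference are printed, and a dashed line marks the share of all rows tested (11.3%). Of the lists of cell markers, only that of enterocytes is shown. Among the lists shown, the oxidative phosphorylation genes have the highest share (66 of 88), followed by the mitochondrial ribosome (44 of 77) and import (13 of 23).

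The genes of oxidative phosphorylation are short, and short transcripts as a whole were lower in the KO libraries. The median length of their protein-coding transcripts was 707 bases (322 to 2676), and 65 of the 88 (73.9%) were at most 1000 bases long, compared with 21.3% of the other protein-coding genes tested, whose median was 1984 bases. Among other genes, the median difference was -0.27 up to 500 bases. It was -0.19, -0.16, -0.12, -0.06 and 0.01 in the next classes, which reached up to 750, 1000, 1500, 2000 and 3000 bases, and 0.07 over 3000 bases. Within the first 4 of these classes, the medians of the 88 genes were -0.63, -0.52, -0.43 and -0.49. In the class up to 750 bases 29 of 37 genes lay below in all KO libraries, where 18.7% of the other genes did. In the class up to 1500 bases 13 of 17 did, where 15.6% of the other genes did. Only 6 of the 88 were longer than 1500 bases, and 3 of these (Ndufb2, Ndufaf4 and Atp5g1) did not overlap. Without W83S, the medians of the other genes ran from -0.29 in the shortest class to 0.07 in the longest, and those of the 88 genes in the first 4 classes were -0.60, -0.50, -0.44 and -0.44. In this comparison 31 of 37 genes in the class up to 750 bases lay below, where 31.2% of the other genes did. In the class up to 1500 bases 15 of 17 did, where 22.9% of the other genes did. The part of transcript length in the result was not tested.

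**Figure D5:**
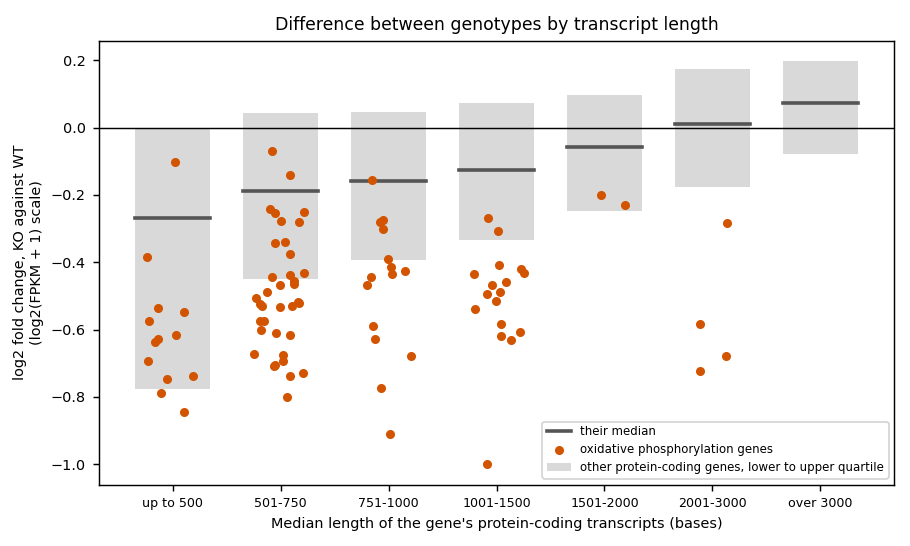
Difference between KO and WT mice (log2 scale of FPKM + 1) by transcript length, with grey boxes from the lower to the upper quartile and a line at the median of the other protein-coding genes, and a point for each of the 88 genes. The line moves from -0.27 in the shortest class to 0.07 in the longest, and most of the points lie under the lower quartile in the classes that reach up to 750, 1000 and 1500 bases. In the shortest class the median of the points (-0.63) lies above the lower quartile of the other genes (-0.78).

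Markers of other cells moved with genotype to different degrees. Of the crypt proliferation markers, 4 of 6 were placed, all with a lower mean in KO mice, and their sums were 7.998, 32.8 and 16.8 FPKM in the KO libraries and 33.5, 59.4 and 78.8 FPKM in the WT libraries, in the order above. Of the 4, Olfm4, a stem cell marker of the crypt, was the single one below in all KO libraries, with 3.98, 20.1 and 12.8 FPKM in KO mice and 24.8, 45.6 and 61.3 FPKM in WT mice, and without W83S 3 of the 4 were below. Leukocyte markers (5 of 6 placed) summed to 74.5 to 237 FPKM in KO and 88.9 to 108 FPKM in WT mice, and 3 of the 5 had a higher and 2 a lower mean in KO mice. Cd3e and Cd3g of T cells lay above in all KO libraries, with differences of 0.80 and 0.58. Cd79a, Cd79b and Jchain of the B cell lineage overlapped with -0.26, -0.62 and 0.62. Over all rows tested, 11.3% lay below and 5.9% above in all KO libraries, and 20.7% lay below without W83S. Smooth muscle markers (2 of 6 placed) summed to 12.2 to 24.6 and 9.67 to 27.8 FPKM, and 1 of 8 pancreatic acinar markers was placed, with 12.4 FPKM in W83S and 1.08 to 3.28 FPKM elsewhere. The part of cell composition in the lower levels was not tested, and in bulk mucosa fewer cells of a type and less RNA per cell cannot be told apart.

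Promoters of the genes were examined for motifs of factors known to bind genes of the respiratory chain. RefSeq promoters of GRCm38.p6, from 250 bases before to 50 bases after the start site, were matched by symbol, synonym or gene identifier for 74 of the 88. The core of the NRF1 site, CGCATGCG, which reads the same on both strands, was present in 11 of the 74 (14.9%), compared with 4.64% of 6666 genes tested and 2.07% of all 27025 genes with a promoter of that length. The YY1 motif AAGATGGCG was found on either strand in 8 (10.8%), compared with 4.22% of genes tested, and the ETS motif CCGGAAG in 18 (24.3%), compared with 22.4% of genes tested. A match describes the letters and not binding, and the genes were not chosen at random. The 9 NRF1 matches that begin before the start site are shown with up to 10 bases on each side, in the direction of the gene and with the motif in capitals, since they lie in genes of 4 complexes that differ in how far the genotypes were apart. They are listed in order of the difference between genotypes. In the first 7 the genotypes did not overlap, and in Ndufa8 and Atp5j they did, where 66 of all 88 genes (75%) did not overlap.
Atp5g2: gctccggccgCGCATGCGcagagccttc
Atp5k: ttcactgcggCGCATGCGcctttctggc
Uqcr11: atcgccttcaCGCATGCGctatacgtct
Ndufaf4: cagatgtctgCGCATGCGcctgtgcgga
Atp5l: aaccaataaCGCATGCGcatttccccc
Cox6a1: aggaacggggCGCATGCGcgctctcgct
Ndufa11: ctgcactgcgCGCATGCGcgcacgcctt
Ndufa8: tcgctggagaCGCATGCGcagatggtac
Atp5j: ggccagaataCGCATGCGtacagtgcag

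The motifs begin 41, 49, 5, 112, 241, 161, 59, 9 and 147 bases before the start site in this order. The stretches lie at chr15:102671071-102671098 (minus strand) for Atp5g2, chr5:108434431-108434458 (minus strand) for Atp5k, chr10:80406809-80406836 (minus strand) for Uqcr11, chr4:24897961-24897988 (plus strand) for Ndufaf4, chr9:44920966-44920992 (minus strand) for Atp5l, chr5:115349102-115349129 (minus strand) for Cox6a1, chr17:56717693-56717720 (plus strand) for Ndufa11, chr2:36049330-36049357 (minus strand) for Ndufa8 and chr16:84835106-84835133 (minus strand) for Atp5j. The differences of the first 7 genes were between -0.70 and -0.34, and those of Ndufa8 and Atp5j were -0.16 and -0.14. The matches in Ndufaf5 and Uqcrc1 begin after the start site, and Uqcrc1 overlapped between genotypes with a difference of -0.25. The promoter of Atp5g2, at chr15:102671048-102671297 on the minus strand, is shown as the example because the gene has the largest difference among those with the motif. Its 250 bases before the start site hold 19 CG pairs and 62.8% G and C, and the NRF1 core is again in capitals.
Atp5g2 promoter: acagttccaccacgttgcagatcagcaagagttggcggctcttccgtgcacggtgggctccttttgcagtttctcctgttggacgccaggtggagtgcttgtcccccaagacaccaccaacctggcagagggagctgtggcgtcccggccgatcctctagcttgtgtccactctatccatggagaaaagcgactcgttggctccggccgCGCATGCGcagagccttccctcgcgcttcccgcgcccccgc

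The identity of some values is less certain. Pseudogenes named after 5 of the genes (Ndufab1, Uqcrh, Atp5k, Atp5c1 and Atp5l) are annotated, and 38 of the 88 overlap another annotated gene, 24 of them a protein-coding one. How the counting treated strand and shared reads is not given in the sources used here, so that reads of these genes and of their copies or neighbours cannot be told apart.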

How the data were processed

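Total RNA of intestinal mucosa from 6 mice was sequenced by the authors as 50-base single-end reads, trimmed with trim-galore, mapped to mm10 with HISAT2 and quantified with StringTie, in versions not given in the sources used here. Values deposited by the authors are FPKM, with 1 value for each gene in each mouse, normalized for length and mapped reads, and name an edgeR normalization without saying whether it enters these values. FPKM holds no read counts, so that the depth behind each value is unknown, and an edgeR count test was not used. Columns were mapped to mice by their titles (0 unmapped), genotypes were taken from the labels, and gene identifiers were placed by rank, with offsets of 0, -1 or -2 between rank 1 and rank 11108. The libraries are from separate mice.

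Rows with at least 1 FPKM in 2 libraries were kept (13089 of 22700), and all 88 genes passed. log2(FPKM + 1) was compared between KO and WT by limma 3.58.1 (R 4.3.3) with a mean-variance trend, two-sided, with Benjamini-Hochberg adjustment over all 13089 rows. A fold change is on this scale and understates that of low genes. The fit was tested on simulated data, where most rows changed by about the median difference of the 88 genes did not pass the threshold. That change was smaller than the fold cutoff (0.585 on the log2 scale), so this outcome was largely fixed in advance and does not measure power. The median difference of the 88 genes, -0.52, is also inside this cutoff. A count of 0 past the threshold does not show equal levels. Summaries used Python 3.11.15 with pandas 2.3.3, numpy 2.4.6 and scipy 1.17.1, and figures matplotlib 3.10.9. Genes named with values were the 3 most abundant per complex, the 8 largest differences without overlap, isoform groups, catalytic subunits, assembly factors and the 2 most abundant of each list, of which 1 gene is not reported here. Others with values (Ndufa8, Ndufb2, Atp5j, Sdhc, Ndufa12, Uqcrc1, Ndufa11 and the like) were chosen after their values were seen. The genes and lists were chosen with earlier results of these data known. Alternatives were pseudocounts of 0.1 and 0.01, no filter, a filter at 2 FPKM, 3 scalings, array weights and leaving out each library. Transcript lengths are from GENCODE M21 (the annotation of the deposited values is not given in the sources used here).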

Additional observations from a re-analysis of the deposited data

How the results depend on the processing

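Under the 14 alternatives, the number of the 88 genes past the limma threshold was 0 except without K82S, and leaving out single libraries gave 0 to 16. The median difference ranged from -0.56 to -0.40 over the fits that left out 1 library, and the number of genes without overlap from 66 to 79, where the share of all rows below ranged from 13.5% without W90S to 32.3% without K82S (69 of the 88 genes), against 11.3% with all libraries. Under quantile normalization 42 of the 88 did not overlap. Cox4i1 turned to 0.12 with equal sums, 0.0238 with median of ratios, 0.0396 with quantile normalization and from -0.26 to 0.0686 over the fits that left out 1 library, where only that without W90S turned. Cox6b2 turned to 0.0518 with equal sums and ranged from -0.46 to 0.26 without single libraries, turning to 0.013 without K79S and to 0.26 without W89S. Of 546 values of the named genes under the alternatives, 529 kept direction and side of the threshold, 10 passed it without K82S and the 7 above turned. Array weights gave K82S a weight of 0.302 and left the lowest adjusted p of the 88 at 0.0721 (limma). With the filter at 2 FPKM, 87 of the 88 genes remained. No paired analysis was possible because the labels give the KO and WT mice no shared replicate numbers. The study describes its mice as matched pairs, but which mouse is paired with which is not given in the sources used here. Of the lists, the cytosolic ribosome moved most without W83S, from 10 to 64 of 89 genes below. The share of all rows below rose from 11.3% to 20.7% in that comparison. Precision is limited by 3 mice per genotype, and counting error could not be given from FPKM.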
